A study of Mus musculus with 40 samples.

Results

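This account concerns the adipocyte nuclei that came with kidney tissue in single-nucleus RNA sequencing of mice. Its members are the nuclei that the authors' deposited annotation, in its form with 30 classes, labels Adipo. There are 68 of them among 16500 nuclei, or 0.412%, and the label was taken as given, without a threshold on any gene. The kidneys were right kidneys of male C57BL/6 mice aged 8 to 12 weeks whose left kidney had been removed (unilateral nephrectomy, UNx) or that had undergone a sham operation with no kidney removed. Nuclei were read from a mid cross-section of the kidney 24 h after surgery in 4 mice, 2 sham and 2 UNx, which are named sham mouse 1, sham mouse 2, UNx mouse 1 and UNx mouse 2. Bulk RNA sequencing covered 36 other right kidneys, in groups of 6 by operation and by time after surgery (24, 48 or 72 h). By the labels, mouse 1 of either operation belongs to batch 3 and mouse 2 to batch 4. Bulk batch 1 is the 24 h libraries and batch 2 is all later ones. Per the series' text, fat and the adrenal gland were dissected from the cranial pole of the left kidney during surgery, and how much fat stayed on the right kidney is not given in the sources used here.

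Adipocytes store triglyceride in lipid droplets coated by perilipins and release it as fatty acids when lipases are switched on by adrenergic signals. White adipocytes hold a single large droplet and secrete hormones such as leptin and adiponectin. Brown and beige adipocytes hold many small droplets and burn fatty acids for heat through Ucp1, a carrier that lets protons back into the mitochondrial matrix without making ATP. Kidneys of mice are embedded in perirenal fat and carry fat in the renal sinus around the vessels at the hilum, and perirenal fat of mice can contain brown adipocytes.

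The 250 bases before the start site are shown for 3 genes that carry the identity of the class, because they differ in a motif of the nuclear receptors that run fat cell genes. They are Ucp1 (chromosome 8, start 83290098, end 83290347, plus strand), Nrg4 (chromosome 9, start 55283626, end 55283875, minus strand) and Plin1 (chromosome 7, start 79732777, end 79733026, minus strand), from RefSeq on build GRCm38.p6. Ucp1 encodes the proton carrier, Nrg4 a growth factor of the neuregulin family that brown fat secretes, and Plin1 the perilipin of adipocyte droplets. Capitals mark AGGTCA or its reverse complement TGACCT, the half-site that nuclear receptors such as Pparg with its partner Rxr recognise.
Ucp1: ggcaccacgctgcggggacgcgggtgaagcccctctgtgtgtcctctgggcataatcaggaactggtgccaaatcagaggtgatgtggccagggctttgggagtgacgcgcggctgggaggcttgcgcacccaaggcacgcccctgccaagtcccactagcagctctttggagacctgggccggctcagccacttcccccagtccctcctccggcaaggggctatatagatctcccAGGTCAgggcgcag
Nrg4: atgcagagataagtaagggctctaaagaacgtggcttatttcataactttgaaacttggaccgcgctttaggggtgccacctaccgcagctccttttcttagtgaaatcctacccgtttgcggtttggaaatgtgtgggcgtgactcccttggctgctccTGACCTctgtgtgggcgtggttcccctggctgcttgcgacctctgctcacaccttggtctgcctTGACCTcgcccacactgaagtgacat
Plin1: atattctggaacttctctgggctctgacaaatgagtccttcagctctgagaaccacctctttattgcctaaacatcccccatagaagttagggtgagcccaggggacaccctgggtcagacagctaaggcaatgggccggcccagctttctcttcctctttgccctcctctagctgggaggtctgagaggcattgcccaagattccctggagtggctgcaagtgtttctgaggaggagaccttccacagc
Ucp1 held 1 match, beginning 14 bases before the start site on the strand of the gene. Nrg4 held 2 matches on the opposite strand, beginning 90 and 26 bases before it, and Plin1 held none in this window. The start sites are 1 RefSeq entry per gene. In another annotation of GRCm38, Nrg4 spans 55220222 to 55326844, so its window lies inside the gene. Plin1 ends there at 79732903, within its window. Windows at other start sites were not read for these 3 genes. Of 27025 genes with a window of the same length, 15.8% held at least 1 match on either strand. Of the 20 leading genes of the class, those with the largest ratio to the next class, 14 had a window and 3 of these held a match (21.4%). A match is a run of letters and not a measured binding site.

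The Adipo nuclei were spread very unevenly over the mice. Sham mouse 1 gave 5 of 5342 nuclei, or 0.0936%, with an exact (Clopper-Pearson) 95% binomial interval of 0.0304% to 0.218%. Sham mouse 2 gave 2 of 2641, or 0.0757% (0.00917% to 0.273%). UNx mouse 1 gave 6 of 5151, or 0.116% (0.0428% to 0.253%), and lay within the intervals of both shams. UNx mouse 2 gave 55 of 3366, or 1.63% (1.23% to 2.12%), and so held 80.9% of the class. The intervals cover counting error only. With 2 mice a group and 1 mouse holding most of the class, sham and UNx were not compared for it. UNx mouse 2 also held 90 of the 120 nuclei of a class to which the annotation gives no cell type, called the untyped class here. Whether the Adipo nuclei came from perirenal, sinus or other fat was not tested. Adipo nuclei had a median of 6360, 8082, 9669 and 10392 UMIs in sham mouse 1, sham mouse 2, UNx mouse 1 and UNx mouse 2, and all nuclei of these mice 7581, 9909, 8370 and 8063. Of 18 cell barcodes found in more than 1 library, none belonged to an Adipo nucleus.

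**Figure D1:**
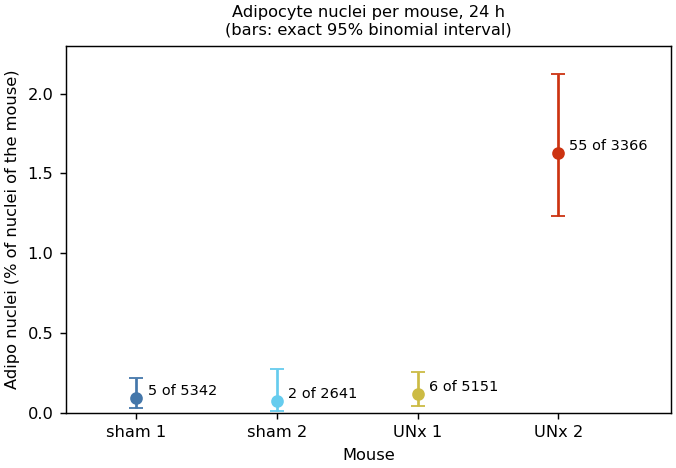
Share of nuclei labelled Adipo (y axis, percent of all nuclei of a mouse) in each of the 4 mice, with exact 95% binomial intervals. Both shams and UNx mouse 1 lie at or under 0.116%, whereas UNx mouse 2 lies at 1.63%, with an interval that does not reach theirs.

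The label was checked against the defining genes of fat cells. Counts of UMIs (unique molecular identifiers, which tag single molecules) were summed over the nuclei of a class and given relative to the class's total as CPM, the usual scaling of counts to a common total, and other classes keep the annotation's own names. Plin1 stood at 415 CPM in Adipo and at most 12.7 CPM in any other class, and 94.1% of Adipo nuclei held a UMI of it. Cidec, which fuses droplets in fat cells, stood at 189 CPM in Adipo against 19.8 CPM in the next class, the untyped one. Adipoq, which encodes adiponectin, was low even in Adipo, at 28.8 CPM with a UMI in 23.5% of nuclei, against 8.26 CPM in the next class. In all, 66 of the 68 nuclei held a UMI of at least 1 of these 3 genes. When each nucleus was thinned to 1500 UMIs, 58.8% of Adipo nuclei kept a Plin1 UMI, 30.9% a Cidec UMI and 8.82% an Adipoq UMI. In the proximal tubule class PTS1 of UNx mouse 2, a cell type that should lack them, the thinned shares were 0.465%, 0.465% and 1.40% of 430 nuclei.

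The same 3 genes were present in the Adipo nuclei of every mouse. Plin1 stood at 1089 CPM in sham mouse 1, 557 in sham mouse 2, 1739 in UNx mouse 1 and 311 in UNx mouse 2. Cidec stood at 342, 495, 654 and 151 CPM in the same order, and Adipoq at 62.2, 124, 172 and 17.5 CPM. UNx mouse 2 was the lowest of the 4 for all 3 genes, although it held most of the nuclei. The Adipo nuclei of the 2 sham mice held only 32145 and 16164 UMIs in all, so that 2 UMIs make up each Adipoq value there.

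Adipocyte genes formed a broad block in the class. The level of each gene in Adipo was set against its mean over the 29 other classes as a difference of log2(CPM + 1). Since the annotation was built on the same nuclei, these differences describe the class and were not tested. Of 25 adipocyte identity genes, 21 had their highest level of all 30 classes in Adipo, against 3.60% of the 17139 genes with a mean of at least 1 CPM over classes. The identity genes had a median log2 difference of 3.45, against -0.32 over all those genes. Pparg, the nuclear receptor that directs fat cell formation, stood at 1908 CPM in Adipo and 443 CPM in the next class, Macro, and had a UMI in every Adipo nucleus. Lpl, the lipase that clears triglyceride from blood, stood at 1502 CPM against 981 in the untyped class, and the fatty acid transporter Cd36 at 937 against 534 in PTS3. Within UNx mouse 2 alone, Adipoq (17.5 CPM against 20.0) and Retn (26.8 against 30.0) read higher in the JG cell class. So did the glucose transporter gene Slc2a4 (43.3 against 50.1), and Fabp4 (423 against 434) read higher in the untyped class. The JG cell class had too few nuclei in this mouse to enter the class medians given further below. Its values rest on few UMIs, so a higher level than in Adipo is not shown for Adipoq, Retn and Slc2a4. Tshr and Npr3, the receptors for thyrotropin and for clearance of natriuretic peptides, went against the list: Tshr stood at 64.6 CPM with a mean of 71.2 elsewhere, and Npr3 at 12.1 with a mean of 16.4.

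Droplet and lipolysis genes showed the machinery of fat storage and release. Among 10 lipid droplet genes, 8 were highest in Adipo, with a median log2 difference of 3.71. Cidea, the relative of Cidec found on the small droplets of brown fat, stood at 374 CPM against 40.3 CPM in the untyped class, and Plin2, a droplet coat of many tissues, at 329 against 160 in Macro. Hilpda, a droplet protein that inhibits lipolysis, was at the level of 1 UMI in the class. Of 11 lipolysis genes, 7 were highest in Adipo, with a median of 2.66. Prkar2b, a regulatory subunit of protein kinase A, stood at 1056 CPM against 141 in the next class, and Lipe, hormone-sensitive lipase, at 526 against 56.8. The monoglyceride lipase Mgll stood at 314 CPM against 234 in the endothelial class EC1. Pde3b, the phosphodiesterase through which insulin restrains lipolysis, stood at 798 CPM and came second to the T cell class at 894.

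Genes that bring in or make fatty acids were high as well. Of 8 genes of uptake, 5 were highest in Adipo, with a median log2 difference of 2.33. Acsl1, which activates fatty acids with coenzyme A, stood at 2680 CPM against 386 in the next class, and Fabp4, the fatty acid binding protein of adipocytes and endothelium, at 547 against 373. Fabp5 stood at 6.51 CPM with a mean of 7.58 elsewhere. Of 14 genes of fatty acid and triglyceride synthesis, 12 were highest in Adipo and all 14 lay at least 1 above the mean of the other classes, with a median of 3.23. Over all 17139 genes, 4.42% lay that far above. Acaca, acetyl-CoA carboxylase, stood at 2214 CPM against 186, and Gpd1, which makes the glycerol backbone of triglyceride, at 856 against 131. Elovl6, an elongase of fatty acids, stood at 626 CPM against 637 in the class ATL. Pck1, the enzyme of gluconeogenesis and glyceroneogenesis, was as abundant in the untyped class (846 CPM) as in Adipo (859 CPM).

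Secreted factors were mixed. Of 10 adipokine genes, 4 were highest in Adipo, with a median log2 difference of 1.14. Nrg4 stood at 705 CPM against 36.0 in the next class and Retn, which encodes resistin, at 34.4 against 11.6. Cfd, which encodes the complement protease adipsin, stood at 64.5 CPM in Adipo and at 147 CPM in the untyped class. Lep, which encodes leptin, stood at 7.44 CPM from 8 UMIs in 4 nuclei. Rarres2 stood at 6.51 CPM with a mean of 7.73 elsewhere, and Sfrp5 and Apln had no UMI. Among 13 adipocyte transcription factors, 5 were highest in Adipo (median 1.44), among them Pparg and Ebf2. Ebf2, a factor that marks brown and beige fat precursors and adipocytes, stood at 481 CPM against 17.9 in the fibroblast class. Ebf1 stood at 1784 CPM and was higher in the juxtaglomerular class (JG cell, 3497 CPM). Mlxipl, the glucose-sensing factor ChREBP, stood at 543 CPM against 506 in PTS3, whereas Cebpd stood at 1.86 CPM with a mean of 7.55 elsewhere. Of 10 genes of the insulin response, 5 were highest in Adipo (median 1.69), including Insr, the insulin receptor, at 392 CPM against 356 in EC1. Irs1, a docking protein of that receptor, stood at 228 CPM and was higher in the class ICB (831 CPM). Tbc1d4, a brake on glucose transporter traffic, stood at 223 CPM with a mean of 249 elsewhere.

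**Figure D2:**
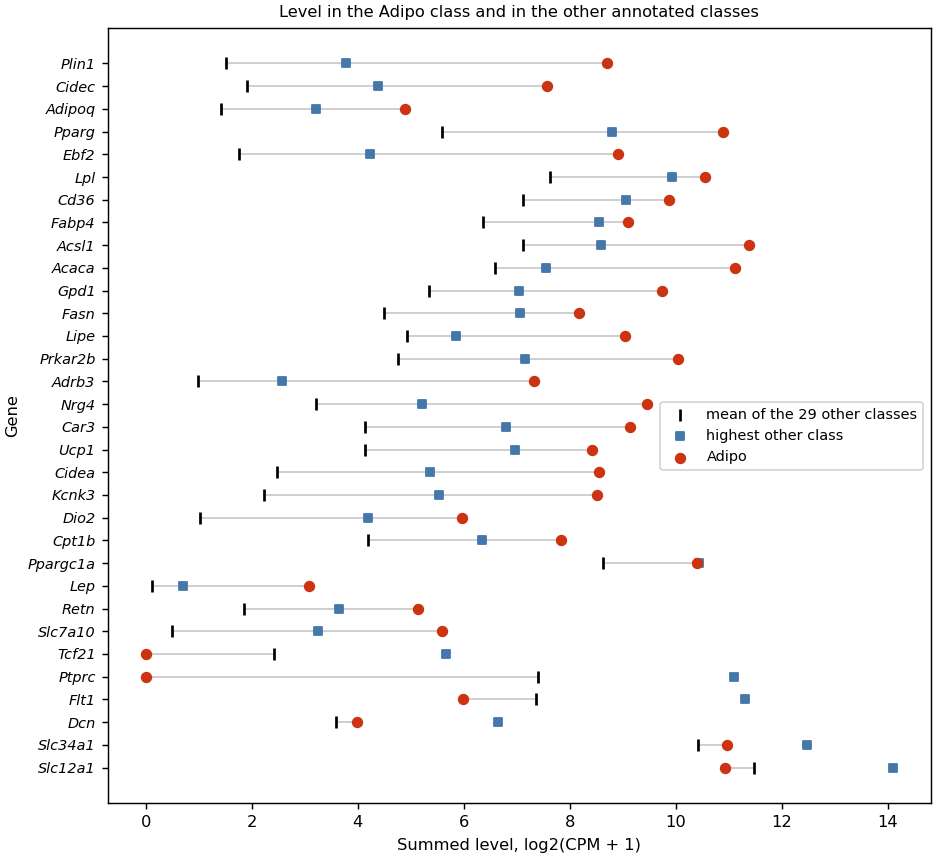
Summed level of 32 genes as log2(CPM + 1) (x axis) in Adipo (red points), in the highest other class (blue squares) and as the mean of the 29 other classes (black bars). Plin1, Ebf2, Adrb3 and Nrg4 stand farthest from the other classes, whereas Ptprc and Tcf21 lie at 0 in Adipo.

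The class carried many, but not all, of the listed genes of heat-producing fat. Ucp1 stood at 341 CPM in Adipo against 125 CPM in the untyped class, and 80.9% of Adipo nuclei held a UMI of it. Of 17 thermogenic genes, 8 were highest in Adipo and 13 lay at least 1 above the mean of the other classes, with a median log2 difference of 1.80. Ppargc1a, a coactivator of mitochondrial genes that tubules also use, stood at 1349 CPM, close to the 1384 CPM of the class MTAL. Pank1, of coenzyme A synthesis, stood at 611 CPM and Prdm16, a transcriptional regulator of brown fat, at 516 CPM, and both were higher in a tubule class (845 in PTS3 and 829 in MTAL). Kcnk3, a potassium channel, stood at 364 CPM against 45.6, and Dio2, which activates thyroid hormone, at 61.8 against 17.2. Cpt1b, which carries fatty acids into mitochondria, stood at 229 CPM against 80.0, and the mitochondrial protein gene Letmd1 at 115 against 35.6. The cytochrome oxidase subunit gene Cox8b stood at 13.0 CPM, with UMIs in UNx mouse 2 only, and was higher in the untyped class (18.2 CPM). Cox7a1, another such gene, stood at 9.30 CPM against 14.4 in the T cell class, and P2rx5 at 30.2 against 37.5 in CTAL2. Elovl3 had 2 UMIs. Zic1, Lhx8 and Fgf21 had no UMI in the class. Zic1 and Lhx8 are markers of classical brown fat, and Zic1 had no UMI in any other class either.

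Ucp1 was read in the Adipo nuclei of all 4 mice. A UMI was present in 2 of 5 nuclei of sham mouse 1, 2 of 2 of sham mouse 2, 4 of 6 of UNx mouse 1 and 47 of 55 of UNx mouse 2. These counts are not corrected for depth, which differed between the mice. In UNx mouse 2, 23 of the 30 nuclei with at most 12000 UMIs held one. Thinned to 1500 UMIs, the share was 32.7% in UNx mouse 2 (20.7% to 46.7%) and 46.2% in the other mice together, from 6 nuclei. The level was 218 CPM in sham mouse 1 (exact 95% Poisson interval 87.6 to 449), 742 in sham mouse 2 (384 to 1297), 723 in UNx mouse 1 (521 to 977) and 315 in UNx mouse 2 (281 to 353). The order of the mice for Ucp1 was not that for Plin1, which was highest in UNx mouse 1 and lowest in UNx mouse 2. At 1500 UMIs a nucleus, 35.3% of Adipo nuclei kept a Ucp1 UMI (24.1% to 47.8%), against 4.88% of PTS1 nuclei and 7.50% of fibroblast nuclei of UNx mouse 2.

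White fat genes were fewer. Of 10 genes in that list, 3 were highest in Adipo, and the median log2 difference was -0.07. Slc7a10, an amino acid transporter on the surface of white adipocytes, stood at 47.4 CPM against 8.54 in the next class, beside Retn and Lep above. Agt, which encodes angiotensinogen, stood at 17.7 CPM and was higher in the untyped class (52.9 CPM), and Nnat stood at 9.30 CPM with a mean of 10.0 elsewhere. Wt1 stood at 6.51 CPM and Tcf21, a marker of white fat precursors, had no UMI. The genes Hoxc8, Hoxc9 and Hoxc10 had at most 2.5 UMIs each.

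The nuclei differed among themselves in these programmes. In the 41 nuclei with at most 12000 UMIs, a limit set after the values were seen, 29 held a Ucp1 UMI and 12 did not, at median depths of 7572 and 6876 UMIs. Nuclei without one had more Car3, a carbonic anhydrase abundant in white fat, at 3896 CPM (3474 to 4355) against 405 CPM (326 to 497) in nuclei with one. Retn stood at 327 CPM (214 to 480) against 4.45 (0.113 to 24.8), and Slc7a10 at 315 (204 to 465) against 13.3 (2.75 to 39.0). All 7 Lep UMIs of the 41 nuclei lay in nuclei without Ucp1. In the other direction, Kcnk3 stood at 951 CPM (828 to 1088) with a Ucp1 UMI and 159 (83.5 to 274) without, and Ppargc1a at 2990 (2769 to 3225) against 705 (533 to 916). Plin1 was 656 CPM (555 to 771) with and 1323 (1082 to 1601) without, so both sets carried the droplet gene. Nrg4 was likewise in both, at 1398 CPM (1247 to 1561) and 2103 (1796 to 2447). The 12 nuclei without a Ucp1 UMI were 3 of sham mouse 1, 2 of UNx mouse 1 and 7 of UNx mouse 2. Within UNx mouse 2 alone, Car3 stood at 3616 CPM (3059 to 4244) in the 7 nuclei without and 256 (188 to 341) in the 23 with, and Kcnk3 at 208 (93.1 to 401) and 1030 (889 to 1188). The intervals are exact Poisson intervals for counting error only, and the 2 sets are cut by 1 gene and are not types. A single Ucp1 UMI was enough to count a nucleus as holding one, and some held only 1. Ucp1 also stood at 53.2 CPM in fibroblast nuclei of UNx mouse 2 with at most 12000 UMIs. The part of free RNA in this cut was not tested.

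The 20 leading genes were chosen by the ratio to the highest other class, with a UMI in at least 20% of nuclei and at least 50 CPM, a rule that 4219 genes could meet before ranking. The first was Ctcflos, an antisense transcript, at 556 CPM against 11.4 CPM in the JG cell class (chromosome 2, start 173110818, end 173133204, plus strand, GRCm38). The counting was not stated to use strand, so reads of its partner gene cannot be told apart. Hk2, the insulin-regulated hexokinase, stood at 304 CPM against 9.01, and Adrb3, the adrenergic receptor through which noradrenaline drives lipolysis, at 160 against 4.92. Slc36a2, an amino acid transporter and surface marker of brown and beige fat, stood at 554 CPM against 19.9 and was read in 67 of 68 nuclei. Lncbate1, a long noncoding RNA of brown fat, stood at 259 CPM against 11.4. Ppp1r3b, a glycogen-targeting subunit of a phosphatase, stood at 143 CPM against 7.21, and Acvr1c, the receptor ALK7 of fat cells, at 224 against 22.7. Pnpla3, a lipid acyl hydrolase, stood at 185 CPM against 14.8. Plin1, Ebf2, Nrg4, Acaca and Plin4 were also among the 20, as were A530065N20Rik, Ankef1, A530053G22Rik, Myl1, Fgf14 and Rgs7. The last of the 20, Rgs7, had a ratio of 9.40, and the first genes outside, Cidec, Lipe and Smoc1, had 9.13, 9.11 and 9.10.

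Genes of other tissues near the kidney were counted in the same nuclei. Of 7 adrenal cortex genes, 6 had no UMI in Adipo, and Star stood at 13.3 CPM with a mean of 11.1 elsewhere. Of 13 genes of fat progenitors and fibroblasts, none was highest in Adipo and 4 had no UMI (median log2 difference -0.58). Dcn stood at 14.9 CPM against 98.8 in the fibroblast class, and Pdgfra at 9.30 against 389 in pericytes. The mesothelium list of 6 genes took 0.0016% of Adipo UMIs in UNx mouse 2 and 0 in the other mice together. Of 8 leukocyte genes, 3 had no UMI, Ptprc among them (median -2.70). Of 7 endothelial genes, none was highest in Adipo (median -1.45), with Flt1 at 62.3 CPM against 2525 in EC1.

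Transcripts of kidney tubules were present in Adipo nuclei, and more so in UNx mouse 2. The 9 proximal tubule genes took 1.25% of Adipo UMIs in UNx mouse 2 and 0.43% in the other 3 mice, and the 25 identity genes took 0.782% and 2.65%. Slc34a1, the phosphate transporter of the proximal tubule, stood at 2208 CPM in UNx mouse 2, 1145 in sham mouse 2, 62.2 in sham mouse 1 and 51.6 in UNx mouse 1. Slc12a1, the sodium transporter of the thick ascending limb, had another order, at 2080, 254, 2038 and 86.1 CPM, but 64 UMIs of it in sham mouse 1 lay in 1 nucleus and the other 4 nuclei held at most 1 each. Within UNx mouse 2 these values moved with depth. Its 30 nuclei with at most 12000 UMIs had a median identity share of 1.65% (range 0.790% to 3.76%) and its 25 deeper nuclei 0.477% (range 0.295% to 1.33%), and 4 Adipo nuclei lay within 10% of that limit. In the 25 other classes of this mouse with at least 10 nuclei, the median ranged from 0.0779% to 0.261%, so the lowest deep nucleus lay just above the highest of these medians. Plin1 stood at 728 CPM in the shallower and 185 CPM in the deeper nuclei, Slc34a1 at 737 and 2652 CPM, and Slc12a1 at 918 and 2430 CPM. The deeper nuclei of the podocyte class of the same mouse had 2265 CPM of Slc34a1, and those of the fibroblast class 2669 CPM. The part of free RNA or of nuclei caught together in these values was not tested, and no doublet caller was run.

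**Figure D3:**
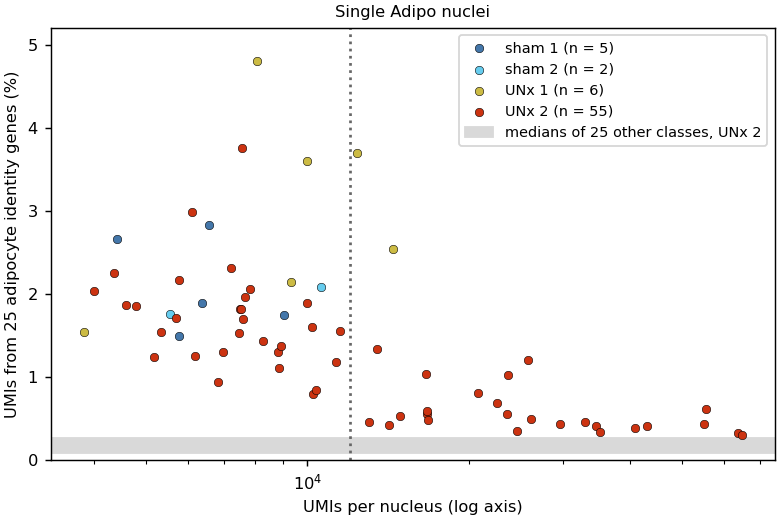
Each point is 1 Adipo nucleus, with its UMIs on a log x axis and the percent of its UMIs from the 25 identity genes on the y axis, coloured by mouse. The grey band spans the medians of the 25 other classes of UNx mouse 2 (0.0779% to 0.261%), and the dotted line marks 12000 UMIs, right of which the nuclei of UNx mouse 2 lie low.

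With the deeper nuclei left out, the class stood out more. The median log2 difference of the identity list was 4.80 with at most 12000 UMIs, a setting chosen after seeing the data, and 5.42 without UNx mouse 2, compared with 3.45 over all nuclei. By mouse it was 4.86 in sham mouse 1, 3.98 in sham mouse 2, 5.82 in UNx mouse 1 and 2.36 in UNx mouse 2.

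Fat-cell transcripts were also read in nuclei outside the class, again most in UNx mouse 2. Over all nuclei that are not Adipo, Ucp1 stood at 6.91 CPM in sham mouse 1, 0.784 in sham mouse 2, 0.465 in UNx mouse 1 and 38.8 in UNx mouse 2. Cfd stood at 9.58, 2.93, 1.98 and 45.8 CPM in the same order, and Adipoq at 0.673, 0.0564, 0.141 and 4.51 CPM. UNx mouse 2 was the highest for all 3 genes and sham mouse 1 the second. Plin1 outside the class stood at 0.256, 0.226, 0.0818 and 3.60 CPM. At 1500 UMIs a nucleus, 5.41% of the other nuclei of UNx mouse 2 held a Ucp1 UMI (4.66% to 6.23%), against 1.05% in sham mouse 1 (0.794% to 1.36%), 0.0379% in sham mouse 2 and 0.0389% in UNx mouse 1. Nrg4 did not follow this order, at 8.53, 6.01, 15.9 and 10.2 CPM.

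**Figure D4:**
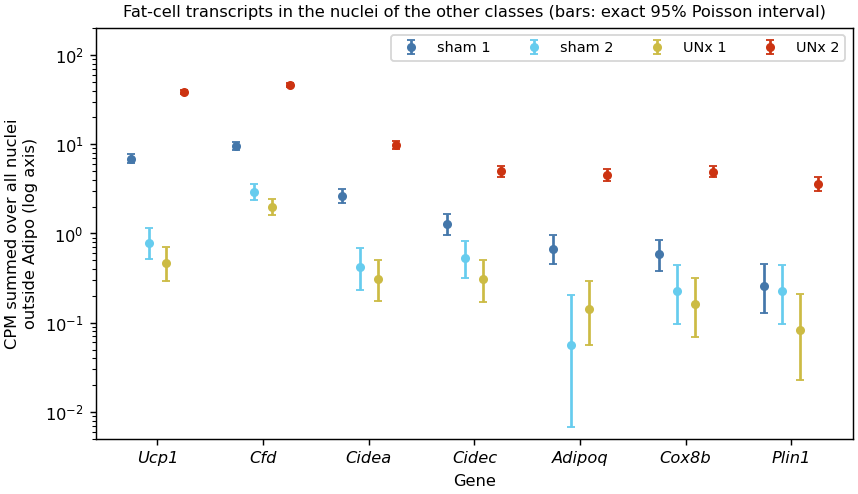
CPM of 7 fat-cell genes summed over all nuclei outside Adipo (log y axis), by mouse, with exact 95% Poisson intervals. UNx mouse 2 is highest for every gene shown, with Ucp1 at 38.8 CPM and Adipoq at 4.51 CPM.

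The bulk libraries of the 36 other mice show how often whole kidney tissue carried these genes. Depth was 14.9 M to 24.1 M estimated counts a library, and the mitochondrial share was 21.5% to 26.7% at 24 h, 13.6% to 16.1% in later libraries apart from the 48 h UNx replicates 1 to 5, and 25.8% to 26.4% in those 5. Bulk levels are CPM scaled with TMM factors (a correction for library composition). In bulk tissue, fewer cells of a type and less RNA per cell cannot be told apart. Adipoq reached at least 1 CPM in 16 of 36 libraries, and Plin1 did so in 15 of these 16. In 19 libraries Adipoq had at most 3 counts.

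At 24 h Adipoq, Plin1 and Ucp1 were low in all but 1 library. Adipoq ranged from 0 to 0.167 CPM in the shams (median 0), and from 0 to 72.0 CPM in UNx libraries (median 0.0226). UNx replicate 4 held the 72.0 CPM and the next library 1.43 CPM. Ucp1 was 74.4 CPM in UNx replicate 4 and at most 0.179 CPM in the other 11 libraries, and Plin1 was 68.1 CPM against at most 0.492. The groups overlapped for all 3 genes. Fabp4 was present in every library of this time, at 19.2 CPM or more, and reached 416 CPM in UNx replicate 4 against 29.7 in the next library.

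Later libraries carried the genes more often and in both groups. They are all of batch 2 and the 24 h libraries of batch 1, so time and batch cannot be told apart here. At 48 h the shams had 0.0479 to 39.2 CPM of Adipoq (median 4.31, highest in replicate 3) and UNx libraries 0 to 11.1 CPM (median 0, highest in replicate 5). At 72 h the shams had 0.153 to 11.8 CPM (median 3.38) and UNx libraries 0 to 7.90 CPM (median 0.510). Ucp1 ranged from 0 to 101 CPM in the 48 h shams (median 9.06) and from 0 to 45.3 CPM in 48 h UNx libraries (median 0.0699). At 72 h it ranged from 0.0509 to 20.1 CPM in shams (median 5.13) and from 0 to 27.5 CPM in UNx libraries (median 3.64). The groups overlapped at both times for both genes.

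**Figure D5:**
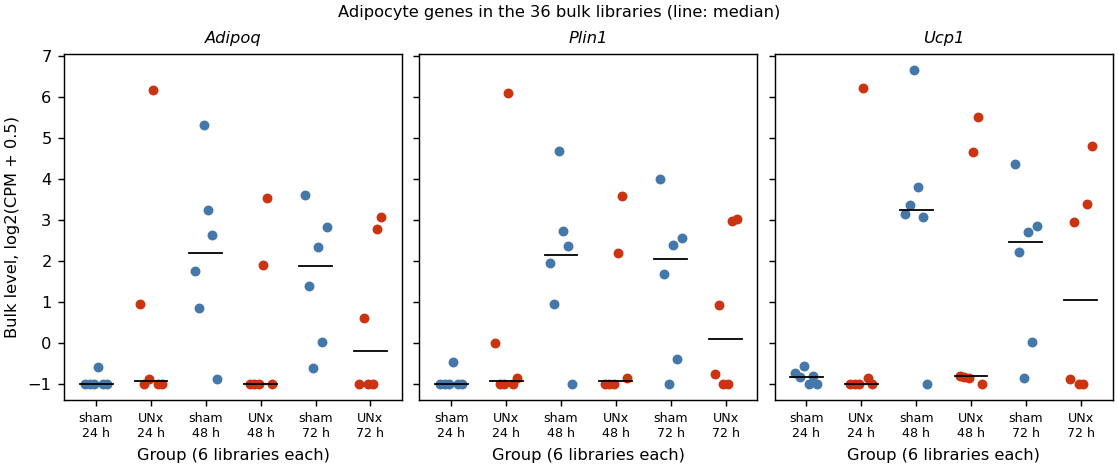
Level of Adipoq, Plin1 and Ucp1 as log2(CPM + 0.5) (y axis) in each of the 36 bulk libraries, by group (x axis, blue for sham and red for UNx, line at the median). UNx replicate 4 of 24 h stands alone among the 24 h libraries at 72.0 CPM of Adipoq, whereas at 48 and 72 h high and low libraries occur in both groups.

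Adipoq moved closely with some adipocyte genes from library to library and not with others. Over the 36 libraries, log2(CPM + 0.5) of Adipoq had a Pearson r of 0.991 with Plin1, 0.984 with Cidec, 0.978 with Cfd, 0.945 with Ucp1 and 0.941 with Fabp4 in the 6 relations computed. The 6 relations had adjusted permutation p values for r of 1.0e-05 each, the smallest that 100000 permutations can give. Spearman's rho was 0.930, 0.885, 0.958, 0.783 and 0.872 for these 5 genes in the same order (adjusted permutation p = 1.2e-05 each). Without the 2 libraries farthest from the median of Adipoq, r was 0.988, 0.977, 0.977, 0.933 and 0.936. Car3 followed less closely, with r = 0.633 and rho = 0.415 (adjusted permutation p = 0.0131 for rho), and r fell to 0.419 without those 2 libraries.

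Within batch 2 (24 libraries, 48 and 72 h) r remained between 0.947 and 0.990 for the 5 genes other than Car3 (adjusted permutation p = 1.2e-05 each) and was 0.469 for Car3 (adjusted permutation p = 0.0200). Within batch 1 (12 libraries, 24 h) r was 0.991 for Plin1 and 0.912 without the 2 libraries farthest from the median there, and Spearman's rho was 0.80 (adjusted permutation p = 0.00855). For Ucp1 in batch 1, r was 0.956 over all 12 and -0.362 without those 2, so that it rests on them, and rho was -0.073 (adjusted permutation p = 0.818). The value for Fabp4 in batch 1 rests on them as well, with r = 0.962 and -0.430. Car3 went from 0.929 to 0.357 without them, and Cidec from 0.990 to 0.678, with a rho of 0.561 (adjusted permutation p = 0.122). Cfd kept an r of 0.948, from 0.972. In the libraries left without those 2, Adipoq was at most 0.167 CPM, or 3 counts, in sham replicate 4. Sham replicate 4 also held the highest Plin1 (0.223 CPM) and Cfd (2.84 CPM) among them. The r of Plin1 and Cfd without those 2 thus rests mainly on that library, at levels near 0 for Adipoq. In UNx replicate 1 of 24 h, Adipoq stood at 1.43 CPM and Ucp1 at 0. Among the 16 libraries with at least 1 CPM of Adipoq, the ratio of Ucp1 to Adipoq CPM, not corrected for transcript length, ranged from 0 to 7.66 with a median of 1.83.

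The genes most like Adipoq over the 36 libraries were ranked by Pearson r among 13848 genes that exceeded 1 CPM in at least 6 libraries, as a description with no test, since these libraries share batches and depth. The median r of all genes was 0.014. Of the 13848 genes, 49 reached 0.8 and 24 reached 0.9. Of 87 genes of the adipocyte lists measured, 19 reached 0.8, and their median was 0.348. After Plin1 and Cidec came Retn (0.983), Slc36a2 (0.980), Cfd, Nat8l (0.971), Cidea (0.967), Hp (0.967), Thrsp (0.965), Otop1 (0.964) and Cox8b (0.959). Nat8l makes N-acetylaspartate, Hp encodes haptoglobin and Cox8b is a cytochrome oxidase subunit of brown fat and muscle. Of the 20 leading genes of the nuclei, 10 were measured here and 9 of them reached 0.8, among them Slc36a2, Adrb3, Ppp1r3b, Plin4 and Pnpla3. Fasn, fatty acid synthase, which tubules also express, reached 0.883, whereas Lpl reached -0.196 and Pck1 -0.304. The tubule genes Slc34a1 and Umod had r of 0.071 and 0.175, and the mesothelial genes Msln and Upk3b 0.455 and 0.514.

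UNx and sham were compared in bulk with edgeR's quasi-likelihood test over all genes at each time, and the adipocyte genes were read from those fits. At 24 h, 17 of the 25 identity genes could be tested, which Adipoq, Plin1, Cidec and Ucp1 could not because too few libraries held counts. Dgat2, Fabp4, Plin4 and Thrsp, 4 of the 17, rose and none fell, with a median log2 fold change of 0.33. Over all 14104 genes 27.3% were called, 14.2% as higher and 13.1% as lower. Thrsp, a regulator of lipid synthesis, ranged from 0.594 to 1.91 CPM in shams and from 0.887 to 67.9 CPM in UNx libraries, and the next library after replicate 4 had 1.64 CPM. Its log2 fold change was 3.40 (SE 1.13, edgeR adjusted p = 0.0366), and without UNx replicate 4 it was 0.15 (adjusted p = 0.736). Fabp4 likewise went from 1.97 (adjusted p = 0.0465) to 0.19 (adjusted p = 0.218), Plin4 from 2.74 (0.0452) to 0.21 (0.621) and Prkar2b from 2.44 (0.0399) to 0.41 (0.189). Of 21 genes of the adipocyte lists and leading genes called at 24 h, 5 lost the call without that library (Plin4, Prkar2b, Me1, Thrsp and Fabp4), and Fasn, Pnpla2 and Scd1 gained one. Fasn was 102 to 131 CPM in shams and 138 to 918 CPM in UNx libraries, where replicate 4 held the 918 and the next library 148, and the groups did not overlap. Its log2 fold change was 1.21 with an adjusted p of 0.0544, and 0.25 with an adjusted p of 0.0161 without replicate 4.

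The 3 genes of the lists with the lowest p at 24 h were also read in other classes of nuclei, with means over those classes of 107 CPM for Mlxipl, 7.30 for Fitm2 and 33.9 for Plin2. Mlxipl fell by 0.62 on the log2 scale (SE 0.0802, edgeR adjusted p = 0.000152), from 99.6 to 138 CPM in shams to 69.2 to 87.2 CPM in UNx libraries, without overlap. Fitm2, a protein of droplet budding, rose by 0.55 (SE 0.0729, adjusted p = 0.000186), with 22.5 to 26.6 CPM in shams and 32.3 to 41.3 CPM in UNx libraries. Plin2 rose by 0.47 (adjusted p = 0.00023), from 47.7 to 51.1 CPM to 60.2 to 77.5 CPM. For all 3 genes every UNx library lay on the same side of every sham library, UNx replicate 4 included. Pck1 rose by 0.75 (adjusted p = 0.00111), Abhd5, the activator of the triglyceride lipase, by 0.38 (0.002) and Rarres2, which encodes chemerin, by 0.53 (0.00371). Pck1, Abhd5 and Rarres2 were likewise read in other classes, with means of 228, 27.4 and 7.73 CPM. With the mitochondrial share as a covariate, Abhd5 (0.36, adjusted p = 0.0781) and Rarres2 (0.39, 0.188) lost the call, as Rarres2 did in a joint fit of all 36 libraries (0.52, 0.289). By list, 4 of 6 droplet genes tested rose, 6 of 14 of synthesis and 3 of 9 of lipolysis, and none of these fell. Over all genes, 14.2% were called as higher and 13.1% as lower. Of these list genes, Plin4, Thrsp, Me1 and Prkar2b lost the call without UNx replicate 4. Of 7 thermogenic genes tested 1 fell, Cox7a1, a cytochrome oxidase subunit of muscle and brown fat, by 0.49 (adjusted p = 0.0292). Among the transcription factors Cebpa rose by 0.58 (0.00724) and Cebpb by 0.56 (0.0136), whereas Mlxipl and Klf15 fell, Klf15 by 0.35 (0.0200).

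At 48 h, 32.9% of 14280 genes were called, 16.9% as higher and 16.0% as lower. Of 22 identity genes tested, only Pnpla2, the triglyceride lipase, passed, with a rise of 0.40 (edgeR adjusted p = 0.0469). Adipoq had a log2 fold change of -2.08 (adjusted p = 0.197), Plin1 of -1.43 (0.356), Cidec of -1.87 (0.206) and Ucp1 of -1.04 (0.540). Single libraries moved these values. Without sham replicate 3 they were -0.71 for Adipoq, -0.29 for Plin1, -0.51 for Cidec and 0.54 for Ucp1. Without UNx replicate 5 they were -4.07 for Adipoq (edgeR adjusted p = 0.0430), -3.18 for Plin1, -3.17 for Cidec and -2.32 for Ucp1. The 12 thermogenic genes tested had a median log2 fold change of -0.06. Of 10 genes of the insulin response, 5 fell and none rose, including Insr by 0.34 (adjusted p = 0.00565), Pik3r1, a subunit of the kinase below it, by 0.32 (0.00644) and Pde3b by 0.45 (0.00899). Vldlr, a lipoprotein receptor, fell by 0.41 (0.000826), Gpam, which starts triglyceride assembly, fell by 0.43 (0.00439), and Nr1h3, the sterol sensor LXR alpha, rose by 0.42 (0.00275). These genes were also read in other classes of nuclei, with means over those of 190 CPM for Insr, 163 for Pik3r1 and 118 for Pde3b. For Vldlr, Gpam and Nr1h3 the means were 47.6, 58.8 and 16.8 CPM. Bulk values do not tell in which class a call arose. The UNx replicates 1 to 5 of this time stand apart by their mitochondrial share, given above, and its part in these calls was not tested. With that share as a covariate in edgeR no gene was called at 48 h, with 1713 at an unadjusted p under 0.05. Apart from UNx replicate 6, the share separated the UNx libraries from the shams. The covariate thus nearly repeats the groups, and this fit cannot show whether the calls depend on the share.

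At 72 h, 1.71% of 14556 genes were called, 1.21% as higher and 0.502% as lower, and none of 22 identity genes was, with 3 at an unadjusted p under 0.05 and 1 called by DESeq2. Adipoq had a log2 fold change of -0.75 (edgeR adjusted p = 0.779) and Ucp1 of 0.25 (0.936). The 2 called genes of the adipocyte lists were Pck1, which rose by 0.94 (SE 0.190, adjusted p = 0.0266), and Insr, which fell by 0.26 (SE 0.0594, adjusted p = 0.0430). Insr was 106 to 122 CPM in shams and 82.1 to 100 CPM in UNx libraries, without overlap. Both genes were also read in other classes of nuclei, with means of 228 CPM for Pck1 and 190 CPM for Insr. The class in which either call arose was not tested. Both calls depended on single libraries. That of Pck1 was lost without sham replicate 3, 4 or 6 or UNx replicate 1 or 5 (lowest log2 fold change 0.84), and that of Insr with any library left out other than sham replicate 5 and UNx replicate 6, and with the replicate block (adjusted p = 0.0748).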

How the data were processed

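Nuclei were quantified with alevin on mm10 and analysed with Seurat, per the submitters' processing notes. The deposited matrix holds estimated counts of UMIs for 32285 genes, and 13.8% of values above 0 were not whole (tolerance 0.001), so a nucleus was said to hold a UMI above 0.5. Bulk reads were quantified with Salmon 1.5.0 on GRCm39, with FastQC 0.11.8, per the same notes, and the authors deposited estimated counts per gene, which were rounded before testing (127 of 28467 genes had no symbol). Cell types are the authors' deposited annotation.

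The members and gene lists were chosen with earlier results of these data known. Class levels are CPM of summed UMIs. The genes named are list members described by role, and the 20 leading genes (at least 50 CPM, a UMI in at least 20% of nuclei, largest ratio of CPM + 1 to the next class); some are not reported here. Differences between classes are log2(CPM + 1), with a mean of at least 1 CPM over classes for counts over all genes. Nuclei were thinned to 1500 UMIs, a depth that all 16500 reached. Intervals are 95% exact (Clopper-Pearson or Poisson), for counting error only. Bulk groups of 6 were compared with edgeR 4.0.16 in R 4.3.3 (TMM, filterByExpr, quasi-likelihood test, Benjamini-Hochberg adjustment, threshold 0.05), each time on its own 12 libraries, after checking the script on simulated data. DESeq2 1.42.0, another filter, a replicate block, a mitochondrial covariate, a joint fit and leaving out each library were alternatives. Relations across libraries used 100000 two-sided permutations. Promoters and coordinates were read with Python 3.11.15. The labels do not say more than that libraries are separate kidneys, so p-values measure the spread between them.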

Additional observations from a re-analysis of the deposited data

Results flagged for a closer look

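A bulk library was singled out where its gap to the nearest library of its group of 6 exceeded Dixon's 95% critical value for its share of the group's range. For Adipoq, Plin1, Cidec, Ucp1 and Fasn over 6 groups, 30 sets were examined and 20 had such a library, in each case the highest. The critical value assumes normally distributed values. These CPM were skewed and some groups lay mostly at 0, so the count cannot be set against a chance rate. The 5 genes move together, so these are not independent. UNx replicate 4 of 24 h was singled out for all 5, with 72.0 CPM of Adipoq, 68.1 of Plin1, 69.1 of Cidec, 74.4 of Ucp1 and 918 of Fasn. Sham replicate 4 of 24 h was singled out for Adipoq at 0.167 CPM, Plin1 at 0.223 and Cidec at 0.501, levels of a few counts. At 48 h, sham replicate 3 was singled out for all 5 genes, with 39.2 CPM of Adipoq, 25.1 of Plin1, 34.0 of Cidec, 101 of Ucp1 and 587 of Fasn. UNx replicate 5 of 48 h was singled out for Adipoq at 11.1 CPM, Plin1 at 11.5 and Fasn at 354. At 72 h, sham replicate 1 was singled out for Plin1 at 15.6 CPM, Ucp1 at 20.1 and Fasn at 469, and UNx replicate 6 for Ucp1 at 27.5.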

How the results depend on the processing

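The identity genes stood out less with UNx mouse 2 than without it. The median log2 difference of the identity list was 3.45 over all nuclei and 3.04 to 5.42 with 1 mouse left out. It was 5.42 without UNx mouse 2, and 1.69 against the highest other class instead of the mean. Unthinned, 23.5% of Adipo nuclei held a UMI of Adipoq, 94.1% of Plin1, 75.0% of Cidec and 80.9% of Ucp1. In bulk, edgeR called 3852 genes at 24 h, and 677 with the mitochondrial share as a covariate (3102 to 4137 with 1 library left out). The 4 identity genes called at 24 h were 2 with DESeq2, 10 with no filter, 0 with the covariate (7 at an unadjusted p under 0.05), 14 in a joint fit of 36 libraries and 1 to 7 with 1 library left out. At 48 h the covariate left 0 calls over all genes (1713 unadjusted), and the 1 identity gene became 0 (3 unadjusted), as with no filter (8 unadjusted), and 0 to 6 with 1 library left out. The covariate nearly repeats the groups at 48 h, so its fit cannot show whether the calls depend on the mitochondrial share. Leaving out UNx replicates 1 to 5, chosen after seeing the data, also gave 0 and 0 (2232 and 3 unadjusted), but sets 1 library against 6, so that it shows nothing on whether the calls depend on them. With 1 library left out, 48 h gave 3727 to 6004 calls. At 72 h DESeq2 called 664 genes against 249 and 1 identity gene against 0, and 102 to 677 and 0 to 2 were called with 1 library left out. The replicate block gave 1 identity call at 24 h and 120 calls at 72 h. The numbers only share a label: same-numbered libraries had correlations of deviations of -0.195 to 0.078 at 24 h, -0.204 to 0.0937 at 48 h and -0.388 to 0.148 at 72 h. For 0, 0 and 1 of 6 sham libraries, the UNx library with the highest correlation had the same number. Uncalled log2 fold changes turned sign for Ucp1 at 48 h without sham replicate 3 (0.54, range down to -2.32 without UNx replicate 5), for Ucp1 at 72 h with the block (-0.08) and without UNx replicate 6 (-0.88, range up to 1.09 without sham replicate 1), and for Plin1 (0.06) and Cidec (0.18) at 72 h without sham replicate 1 (ranges down to -1.46 and -1.05 without UNx replicate 6). The 21, 17 and 2 list and leading genes called at 24, 48 and 72 h were 15 to 27, 12 to 24 and 0 to 5 with 1 library left out, and 7 at 24 h with the covariate, which at 72 h took the calls of Pck1 (edgeR adjusted p = 0.0757) and Insr (0.0987). DESeq2 gave no adjusted p for Thrsp, Fabp4, Plin4, Prkar2b and Fasn at 24 h. The cause of these changes was not tested. Depth limits Adipoq, with 31 UMIs over the class.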

Other observations

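Of 6 skeletal muscle genes listed, 4 had no UMI in Adipo, and the list took 0.000929% of Adipo UMIs in UNx mouse 2. Myl1, a myosin light chain gene of skeletal muscle outside that list, stood at 70.7 CPM in Adipo with a UMI in 33 nuclei, against 3.07 CPM in the next class. Lipid synthesis genes were also read outside the class. Over all other nuclei, Fasn stood at 5.15 CPM in sham mouse 1, 10.8 in sham mouse 2, 4.87 in UNx mouse 1 and 43.3 in UNx mouse 2, and Fabp4 at 60.5, 30.2, 23.9 and 120 CPM.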
